A study of Mus musculus with 2 samples.

Results

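The presynaptic genes described here are 9 of the 19465 genes counted in both tissue sections: Snap25, Syt1, Syp, Syn1, Vamp2, Cplx2, Slc17a6, Slc17a7 and Slc32a1. They were chosen by name as parts of the release machinery and as vesicular transmitter transporters, and all 9 were counted and passed the filter on low counts. Levels were taken in tumor, edge and neural spots of each section. The sections came from 2 biological replicates, each a cerebellum with a tumor grown from HP breast tumor organoids and no treatment, and the labels name the organoids HP-F1 for section 1 and HP-B6 for section 2. HP organoids carry the activating alleles HER2 V777L and PIK3CA H1047R. The HER2 transgene is human, is driven by an actin promoter behind a Lox-STOP-Lox element, and was recombined in the donor mammary gland with a Cre adenovirus (the labels give +cre). Organoid cells were labelled with luciferase, selected as clones and injected into the cerebellum of 5-month-old immunocompetent B6 mice, so these alleles and the label belong to the injected cells, and the neural tissue is that of the recipient mouse. No section without a tumor was analysed here. Both sections were 5 µm thick, formalin-fixed and read with Visium CytAssist, a method whose probe pairs for mouse transcripts are transferred onto an array of barcoded spots and counted by unique molecular identifiers (UMIs). Several cells, or parts of cells, can lie over the same spot.

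Fast transmitter release rests on a small set of proteins. Synaptic vesicles are loaded by a transporter that fixes the transmitter: Slc17a7 (VGLUT1) and Slc17a6 (VGLUT2) for glutamate, and Slc32a1 (VGAT) for GABA and glycine. The vesicle then fuses when the vesicle protein Vamp2 and the membrane protein Snap25 zip together with a syntaxin, under the calcium sensor Syt1 and the complexin Cplx2, while Syp spans the vesicle membrane and Syn1 tethers vesicles in the reserve pool. In the cerebellum, granule cells are glutamate neurons that use Slc17a7, Purkinje cells and molecular layer interneurons release GABA, and many brainstem and deep nuclear neurons use Slc17a6. The proteins sit in axon terminals but most of their transcripts lie in the cell bodies. In these spots, RNA of cell bodies and RNA of axons were not told apart.

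Promoter windows from RefSeq were matched for 7 of the 9 genes, and not for Snap25 and Vamp2. The 3 windows below, of 250 bases each and ending 1 base before the annotated start, were chosen because Syn1 was the member that held a neuronal silencer letter string and because the transporters Slc17a7 and Slc17a6 had the most different distribution across neural tissue. Capitals mark TTCAGCACC (the left part of the RE1 silencer element) and TGACGTCA (the cAMP response element) in Syn1, and GGGCGG (the GC box) on either strand in the others.
Syn1 chrX:20920919-20921168 (GRCm38.p6, minus strand): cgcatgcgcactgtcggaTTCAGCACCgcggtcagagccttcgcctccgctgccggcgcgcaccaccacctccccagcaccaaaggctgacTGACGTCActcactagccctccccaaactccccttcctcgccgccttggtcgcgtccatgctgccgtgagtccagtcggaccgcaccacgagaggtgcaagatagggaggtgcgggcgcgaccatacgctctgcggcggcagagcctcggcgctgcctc
Slc17a7 chr7:45163671-45163920 (GRCm38.p6, plus strand): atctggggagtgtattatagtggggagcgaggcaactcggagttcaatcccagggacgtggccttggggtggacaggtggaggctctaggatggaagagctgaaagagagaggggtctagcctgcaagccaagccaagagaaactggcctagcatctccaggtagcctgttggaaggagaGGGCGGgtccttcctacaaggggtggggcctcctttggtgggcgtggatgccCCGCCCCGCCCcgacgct
Slc17a6 chr7:51621580-51621829 (GRCm38.p6, plus strand): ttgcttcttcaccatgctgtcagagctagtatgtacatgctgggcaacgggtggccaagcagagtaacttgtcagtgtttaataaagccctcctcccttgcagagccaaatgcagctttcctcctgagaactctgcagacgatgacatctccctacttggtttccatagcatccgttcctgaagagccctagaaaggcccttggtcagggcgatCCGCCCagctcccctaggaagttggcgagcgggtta
The RE1 part began 232 bases and the cAMP element 159 bases before the start of Syn1. The GC boxes of Slc17a7 began 70, 18 and 13 bases before its start, the last 2 sharing a letter, and that of Slc17a6 began 36 bases before its start. Of 32851 windows of the same length, 0.301% held TTCAGCACC, 1.55% held TGACGTCA and 32.7% held GGGCGG, each on either strand, while TATAAA, searched as well, was in 12.4% of windows and in none of the 9 windows of the 7 members. Syp lies on chromosome X like Syn1, both glutamate transporters lie on chromosome 7 (Slc17a7 at chr7:45163921-45176139 and Slc17a6 at chr7:51621830-51671126), and Slc32a1 lies on chromosome 2 at chr2:158607260-158615747. These letter strings are descriptions of the windows, and no binding was measured.

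Spots were split by a score of 24 tumor genes (12 epithelial, 12 stromal) against 15 glial genes, averaged over neighbours, with no neuronal gene in the score. Section 1 gave 734 tumor, 239 edge and 2338 neural spots, and section 2 gave 1382, 339 and 2237. Edge spots lay within 2 array steps of the border on either side. Depth differed by region: the median spot held 55045 UMIs in the tumor, 20016 at the edge and 7522.5 in neural tissue of section 1, and 32490, 11619 and 9195 in section 2. The sections also differed in what the tumor region held. In section 2 all 12 epithelial markers were over 4-fold above neural tissue (Epcam at 1719 normalized CPM, a gene's count per 1000000 UMIs of its region after TMM scaling), whereas in section 1 this held for 1 of 12 (Krt8), Epcam was at 7.4, and the region was marked by stromal genes such as Col1a1, at 25562. Only 6 of the 12 epithelial markers stood above neural tissue at all in section 1. Their sum there was 171 normalized CPM in the tumor region, 931 at the edge and 354 in neural spots. The name tumor for that region thus rests on the stromal genes of the score. The tumor region of section 2 lay in 2 pieces and held choroid plexus markers, which summed to 3341 normalized CPM against 218 in its neural spots, and glial markers at 5202 against 15599. The highest choroid plexus gene alone stood at 3211. Of the glial genes, Gja1 alone stood above neural tissue in section 2 (log2 fold change 2.67 there), and the highest glial level, 2757, was that of Gja1. The glial sum of that tumor region is therefore largely the level of a single gene. Without TMM scaling these choroid plexus markers were at 3368 CPM in the larger piece and 63.7 in the smaller. Levels of the members are therefore given for both sections separately. The sections shared 3096 barcodes, which are array positions common to all slides.

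**Figure D1:**
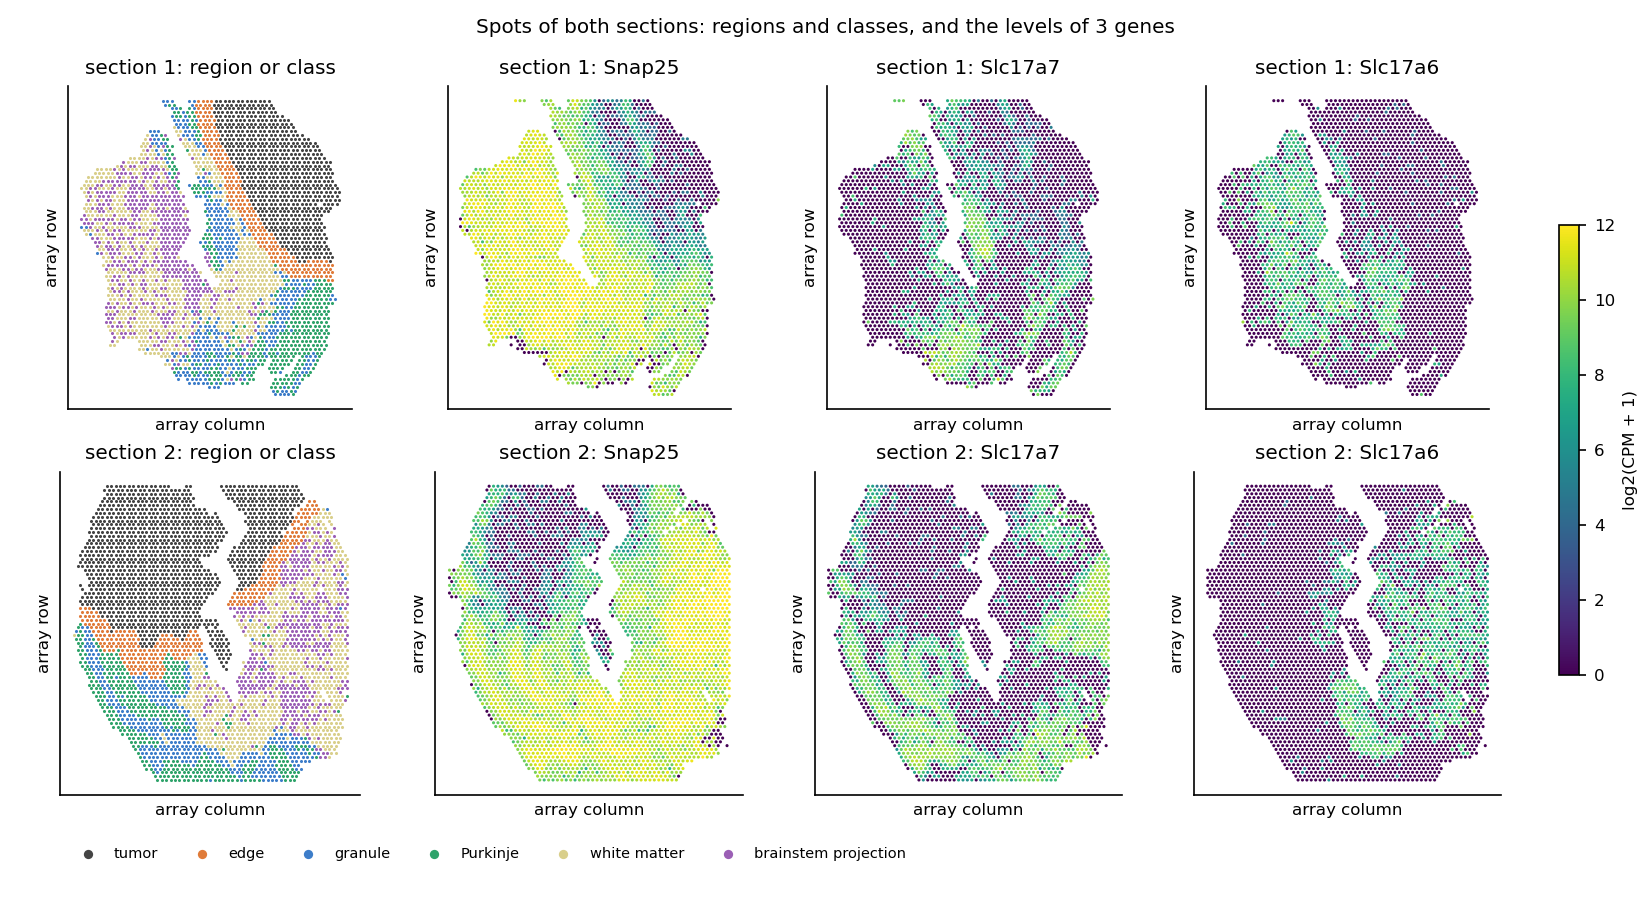
Array maps of section 1 (top) and section 2 (bottom), in array columns and rows, 1 point per spot. The left maps show tumor, edge and the 4 classes of neural spots; the others show log2(CPM + 1) of Snap25, Slc17a7 and Slc17a6 on a shared color scale, with Slc17a7 and Slc17a6 high in different parts of the neural tissue.

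All 9 presynaptic genes were lower in the tumor than in neural tissue in both sections. The difference passed the test for 8 of them, by 3.66-fold for Vamp2 to 40.5-fold for Slc17a6, and Cplx2 missed the threshold. UMIs were summed by section and region and compared by edgeR (quasi-likelihood test, section as block), called at a Benjamini-Hochberg adjusted p below 0.05. Of 19218 genes tested, 23.7% were called, and 11.9% were called lower in the tumor. The median log2 fold change was -3.70 over the 9 members and -0.08 over all genes. In bulk sums of spots, fewer neurons and less RNA per neuron cannot be told apart. Probes differ between genes, so levels are compared within a gene only.

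The membrane SNARE gene Snap25 stood at 42.4 normalized CPM in the tumor, 334 at the edge and 1769.6 in neural spots of section 1, and at 138, 1249 and 2083 in section 2. Both tumors lay below both edges and both edges below both neural regions. The tumor was 26.6-fold lower than neural tissue (log2 fold change -4.73, SE 0.62, adjusted p = 0.016 by edgeR's quasi-likelihood test with Benjamini-Hochberg adjustment). Its vesicle partner Vamp2 stood at 102, 163 and 346 in tumor, edge and neural spots of section 1, and at 103, 305 and 411 in section 2. The tumor levels of Vamp2 were almost equal in the sections and the fall was the smallest among the 9, 3.66-fold (log2 fold change -1.87, SE 0.33, adjusted p = 0.022 by edgeR).

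The calcium sensor Syt1 was read at 4.78, 15.5 and 61.1 normalized CPM in tumor, edge and neural spots of section 1 and at 6.88, 36.7 and 63.9 in section 2. Neural levels of Syt1 were close between the sections, and the tumor was 11.1-fold lower (log2 fold change -3.47, SE 0.38, adjusted p = 0.015 by edgeR). The complexin Cplx2, which clamps and primes the SNARE complex, was the exception in this comparison. It stood at 28.5, 44.8 and 88.5 in tumor, edge and neural spots of section 1 and at 13.4, 109.9 and 153 in section 2. The tumor of section 1 thus had the higher level and its neural tissue the lower, so the log2 fold change was -1.62 in section 1 and -3.46 in section 2. Its combined value of -2.42 (SE 0.63) had an adjusted p of 0.052 by edgeR, and it passed the threshold under several other settings.

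The vesicle membrane protein Syp showed the pattern of Snap25: 16.8, 112 and 798 normalized CPM in tumor, edge and neural spots of section 1, and 71.4, 592 and 878 in section 2. The tumor was 26.7-fold lower (log2 fold change -4.74, SE 0.72, adjusted p = 0.018 by edgeR). The reserve pool tether Syn1 went from 8.97 in the tumor to 34.3 at the edge and 149 in neural spots of section 1, and from 16 to 99.3 and 166 in section 2. It was 13.5-fold lower in the tumor (log2 fold change -3.75, SE 0.41, adjusted p = 0.015 by edgeR). For both genes each region of section 2 lay above the same region of section 1.

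Among the transporters, Slc17a6 showed the widest range. Its levels in tumor, edge and neural spots were 1.58, 5.04 and 133 normalized CPM in section 1 and 8.26, 57.1 and 101 in section 2. Those of Slc17a7 were 14.4, 69.2 and 155 in section 1 and 34.7, 245 and 420.3 in section 2. For the inhibitory transporter Slc32a1 they were 2.76, 8.95 and 55 in section 1 and 6.17, 32.6 and 45.3 in section 2. Slc17a7 was the member whose neural level differed most between the sections, higher in section 2, while Slc17a6 and Slc32a1 were higher in the neural spots of section 1. Tumor levels were 40.5-fold lower for Slc17a6 (log2 fold change -5.34, SE 1.08, adjusted p = 0.029 by edgeR), 11.4-fold lower for Slc17a7 (-3.51, SE 0.29, adjusted p = 0.015) and 13-fold lower for Slc32a1 (-3.70, SE 0.60, adjusted p = 0.019). With granule and Purkinje spots alone as the neural side, the log2 fold change of Slc17a6 was -3.08 (adjusted p = 0.14 by edgeR) and its call was lost.

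**Figure D2:**
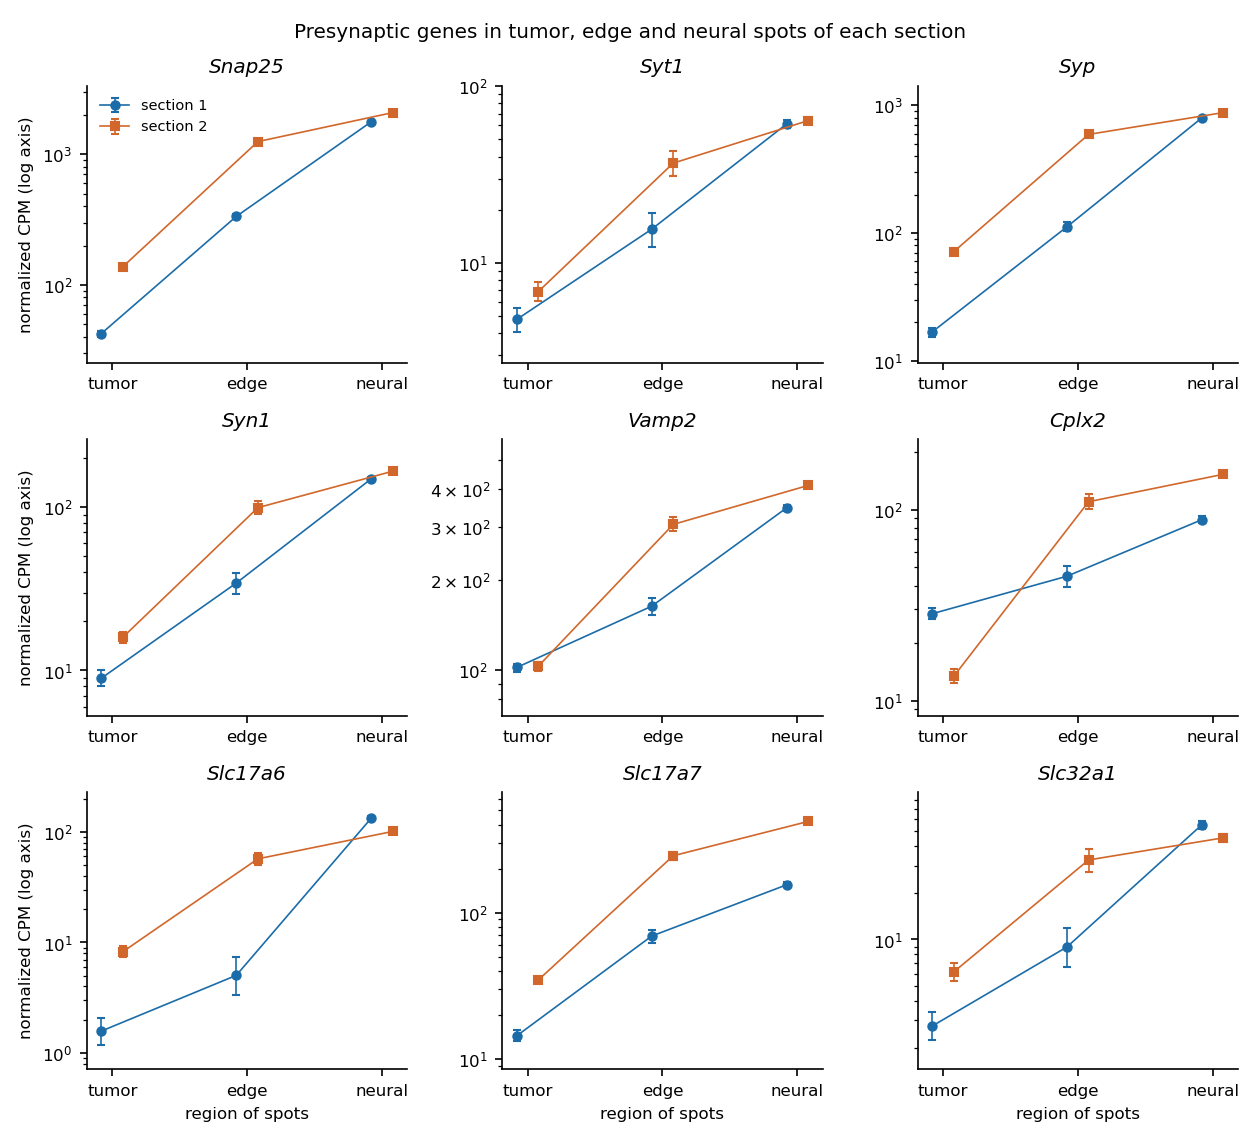
Normalized CPM on a log axis for each of the 9 genes in tumor, edge and neural spots; circles are section 1 and squares section 2, and bars are 95% Poisson intervals, which cover counting error only. All 9 genes go up from tumor to edge to neural spots in both sections, and Cplx2 is the gene with the clearly higher tumor level in section 1 (28.5 against 13.4).

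Because tumor spots held several times more UMIs than neural spots, the same genes were also read as UMIs per spot, with no test. Per spot, Snap25 was at 1.94 in the tumor and 17.2 in neural tissue of section 1, and at 3.82 and 22.9 in section 2. Vamp2 turned direction between sections on this scale, at 4.67 in the tumor against 3.36 in neural spots of section 1 but 2.85 against 4.51 in section 2. Cplx2 did the same, with 1.31 against 0.859 in section 1 and 0.373 against 1.68 in section 2. So the lower share of Vamp2 and Cplx2 in the section 1 tumor did not go with fewer transcripts per spot. Of all Vamp2 UMIs, 28.2% in section 1 and 25.3% in section 2 lay in tumor spots, against 3.29% and 8.46% for Snap25.

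The low levels reached deep into the tumor, given here in plain CPM without TMM scaling. Over the 442 spots of section 1 and 1005 spots of section 2 that lay 9 or more steps inside, Snap25 was at 1.65% and 3.41% of its neural level and Slc17a6 at 1.03% and 4.01%. Vamp2 was still at 22.8% and 18.7%, and Cplx2 at 29.2% in section 1 but 4.99% in section 2. The 9 genes summed were at 4.78% and 5.36%, beside 4.73% and 7.86% for 27 other neuronal genes that are not presynaptic, and 3.24% and 25.2% for glial markers. These glial markers are the genes of the region score, so their low values in the tumor are partly set by it. In section 2 their sum also holds Gja1, which was higher in the tumor than in neural tissue. In section 2 the larger tumor piece (1101 spots) held 94.2 plain CPM of Snap25 and the smaller (281 spots) held 314, with glial markers at 4306 and 6673 and other neuronal genes at 1180.5 and 3318. Snap25 thus varied between the pieces with the other neuronal genes and with the glial sum, whose part from Gja1 in each piece is not given here. The part of neural cells in the tumor values was not tested.

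At the edge the normalized CPM of all 9 genes lay between the tumor and neural levels in both sections, but no difference from either side passed the test. As UMIs per spot, edge spots of section 1 held more than neural spots of Vamp2 (3.65 against 3.36), Cplx2 (1 against 0.859) and Slc17a7 (1.55 against 1.51). The other members in section 1 and all members in section 2 were lower at the edge on that scale. For edge against neural spots edgeR's quasi-likelihood test called 0 of 19218 genes (0%), with 2695 genes at an unadjusted p below 0.05, and DESeq2 called 1120. Of the members, 7 had an unadjusted p below 0.05, and DESeq2 called 4, namely Snap25, Syt1, Syn1 and Slc17a6. For tumor against edge spots edgeR called 0 genes (0%) with 4464 at an unadjusted p below 0.05, all 9 members among them, and DESeq2 called 2303 genes including all 9. Adjusted p-values by edgeR ran from 0.31 to 0.68 for edge against neural and from 0.059 to 0.21 for tumor against edge.

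The sections differed in how far the edge lay below neural tissue. In section 1 the log2 fold change of edge against neural was -2.41 for Snap25, -2.82 for Syp and -4.59 for Slc17a6. In section 2 the same values were -0.74, -0.57 and -0.82. Vamp2 (-1.09 and -0.43) and Cplx2 (-0.98 and -0.47) were among the values closest to 0 in both. The section thresholds of the score differed (0.753 in section 1 and -1.929 in section 2 on its log2 scale), which placed the border of section 2 at a more glial score. With a limit of 0 in both, chosen after these thresholds were seen, edgeR called 1280 genes for edge against neural and 5 members, Snap25 (-2.17), Syt1 (-1.88), Syp (-2.20), Syn1 and Vamp2 (-1.10), all lower. With 2 sections, the difference between sections could not be tested.

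The kind of neural tissue beside the border also differed. At 3 to 8 steps from the border, 3 of 376 neural spots of section 1 (0.798%) were of the brainstem projection class described below, against 25.1% of all its neural spots, while in section 2 the shares were 22% and 23.7%. Granule spots made up 38.3% of those near spots in section 1 and 20.7% in section 2. With granule and Purkinje spots alone as the neural side, the log2 fold change of Slc17a6 at the edge was -0.54 in place of -2.87 (adjusted p = 0.89 by edgeR).

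Across the border, plain CPM differed over many array steps. Snap25 in section 1 went from 1.19% of its neural level 8 steps inside the tumor to 16.9% at the last tumor step, 23.6% at the first neural step, 48.5% at step 5 and 90.8% at step 12. In section 2 the same positions gave 12.8%, 61.6%, 65.1%, 73.1% and 90.0%, a shallower slope on the neural side. Slc17a6 was the lowest member on the neural side of section 1 up to step 3, at 6.96% at step 1 and 13.9% at step 3, and was at 46.4% at step 8 and 106% at step 12. Slc17a7 by contrast was at 50.5% at step 1 and 259% at step 8. Cplx2, Syt1 and Vamp2 also stood above their neural level at that step, at 150%, 134% and 112%. In section 2 Slc17a7 was at 81.7% at step 8 and 97.4% at step 12.

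Other cell markers moved across the same steps. Macrophage and microglia markers, 12 genes summed, were at 465% of their neural level at the last tumor step and 501% at the first neural step of section 1. They were at 309% at the last tumor step of section 2, where the highest value was 3 steps inside the tumor (620.2%). Farther inside the tumor of section 1 they were still at 410.4% at 8 steps and 406% at 9 or more steps. In section 2 these values were 247% and 151%. Glial markers at the first neural step were at 41.2% and 71.7%, beside 26.1% and 68.3% for the 9 presynaptic genes and 31.4% and 74.1% for the other neuronal genes. The glial markers are the 15 glial genes of the score that drew the border, so their values across it are partly set by that rule. Farther out in section 1 glial markers were at 90.3% at step 5 and 69.3% at step 8, while the 9 presynaptic genes were at 54.4% and 91.4%. The part of added non-neural RNA in the lower presynaptic share was not tested.

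**Figure D3:**
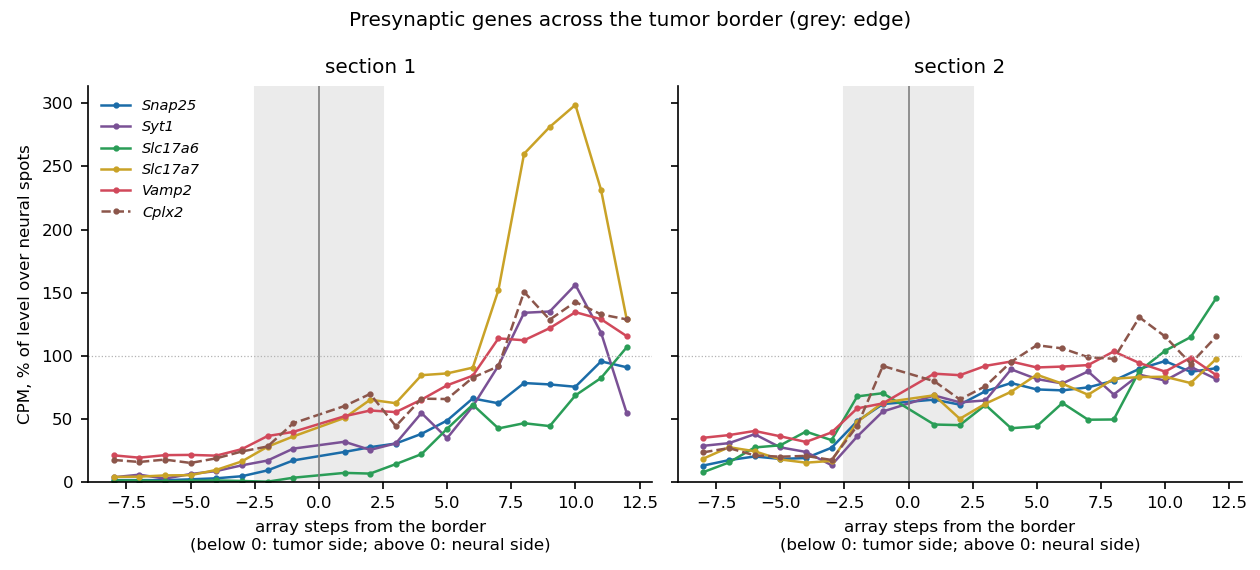
CPM of 6 genes as a percent of their level over neural spots, by array steps from the border (below 0 in the tumor, above 0 in neural tissue; grey marks the edge). Section 1 rises from 1.19% to 90.8% for Snap25 while Slc17a7 is at 259% at step 8; section 2 starts at 12.8% for Snap25 and Slc17a7 is at 81.7% at step 8.

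The rest of the presynaptic pathway was taken from lists drawn up by function, and their counts stand against 11.9% of all 19218 genes called lower in the tumor and a median log2 fold change of -0.08. Vesicle proteins had 17 of 18 tested genes called lower in the tumor and none higher, with a median log2 fold change of -3.71, and Rph3a (-4.94), Sncb (-4.92) and Sv2a (-4.46) fell most. Active zone genes had 16 of 18 lower, with Unc13c (-4.34) and Nrxn3 (-3.79) among them, while the ubiquitous Erc1 (-0.23) and Unc13b (0.08) were not called. Unc13b differed in direction, at -0.95 in section 1 and 1.06 in section 2. Calcium sensors had 10 of 13 lower, led by Syt2 (-4.20), Syt3 (-4.12) and Syt7 (-4.10). SNARE and fusion genes had 7 of 12 lower, led by Cplx1 (-5.09) and Vamp1 (-4.79).

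In the SNARE list, Stx1a went the other way, at 8.14 against 7.71 normalized CPM in tumor and neural spots of section 1 and 32.1 against 9 in section 2, and was not called (log2 fold change 1.08). Endocytosis genes had 7 of 11 lower, led by Dnajc6 (-4.33), Sh3gl2 (-4.26) and Snap91 (-4.20). Genes that make or move transmitter had 11 of 18 lower, led by the GABA transporter Slc6a11 (-5.57), the glycine transporter Slc6a5 (-5.32) and Gad2 (-4.23), which makes GABA. Neuronal genes that are not presynaptic had 26 of 27 lower with a median of -3.71, close to the -3.70 of the 9 members, and Nefl, a neurofilament subunit, was first at -5.69. Not called and above 0 were Slc6a2 (1.78), Slc18a1 (0.10) and Stx12 (0.26). Of these, Slc18a1 differed in direction, at -0.31 in section 1 and 0.44 in section 2. None of these lists held a gene called higher. At the edge no gene of these lists was called against neural spots, as for all genes.

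Relatives of the same proteins that serve secretion in cells of many kinds mostly did not share this fall. Of 16 general paralogs tested, 6 were called higher in the tumor and 1 lower, with a median log2 fold change of 0.93, where 11.8% of all genes tested were called higher and 11.9% lower. Syngr2, a broadly expressed relative of Syp, rose by 2.98 on the log2 scale, from 40.1 to 226 normalized CPM in section 1 and from 29.7 to 306 in section 2. Vamp8, a SNARE of endosomes and secretory granules, rose by 2.19, from 48.7 to 257 and from 51.9 to 209.5. Vamp5 rose by 1.49, and Stxbp2, Stx2 and Vamp3 were the other members called. Snap47 was the paralog called lower, by 1.92 on the log2 scale. Syt17 (-1.35, adjusted p = 0.057 by edgeR) and Sytl2 (-0.57) were also lower in both sections but were not called. Neuroendocrine markers, 9 genes such as Chga and Chgb that would mark dense-core vesicles of other cells, summed to 175 and 410.5 normalized CPM in the tumors against 2656 and 2898 in neural spots.

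**Figure D4:**
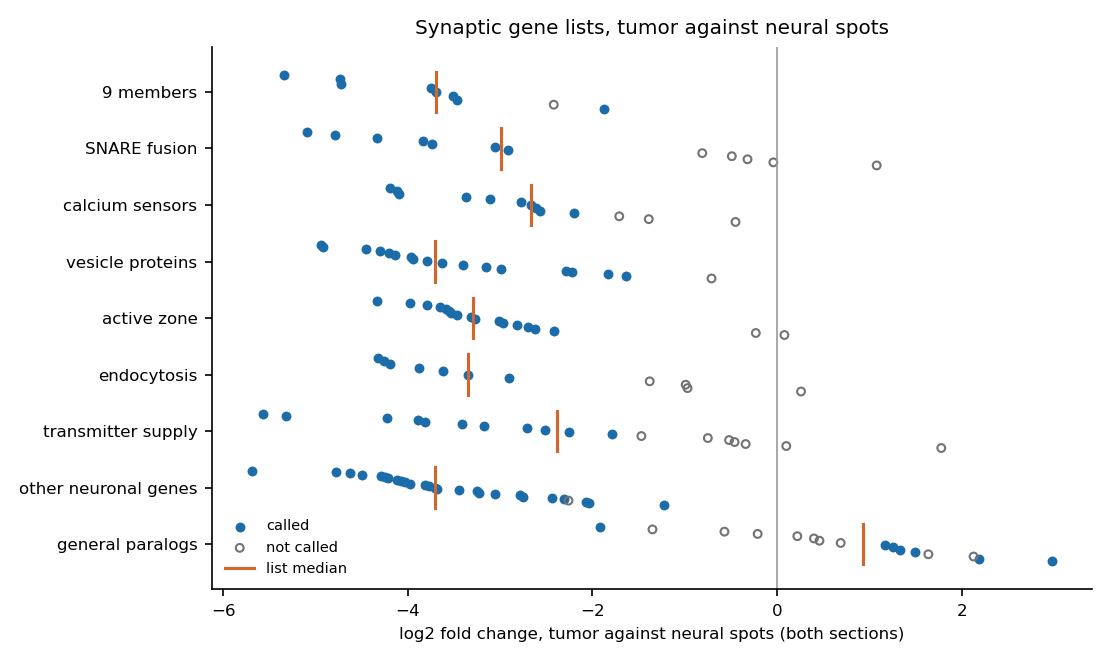
Log2 fold change of tumor against neural spots for the 9 members and 8 gene lists, 1 point per gene; filled points passed edgeR's quasi-likelihood test at an adjusted p below 0.05 and bars mark list medians. The presynaptic lists lie left of 0, with medians from -2.38 to -3.71, and the general paralogs have a median of 0.93.

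Within neural tissue each spot was placed in the class whose markers were highest: granule (435 and 419 spots in sections 1 and 2), Purkinje (425 and 444), white matter (892 and 844) or brainstem projection (586 and 530). These are ranges of spots rich in those markers, not cell types. In 35% and 30.6% of the spots the lead of the top class was under 0.25 z-score units. Each class was set against the mean of the other 3 by edgeR with the section as block, over 18702 genes.

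Brainstem projection spots, marked by genes such as the neurofilament subunits Nefh and Nefm, had the highest level of Snap25, Syt1, Syp and Syn1 among the classes in both sections. edgeR called 5 of the 9 members higher there and none lower, where 17.1% of all genes were called higher, 10.4% lower and 27.5% in either direction. Snap25 stood at 1219.8, 1026, 2017 and 3296 normalized CPM in granule, Purkinje, white matter and brainstem projection spots of section 1, and at 2252, 1319.7, 2338 and 3131 in section 2. Syp stood at 501, 657, 895 and 1442 in section 1 and at 614, 857, 1090.2 and 1355 in section 2. Snap25 was lowest in Purkinje spots and Syp in granule spots in both sections. The brainstem class was higher by 1.27 and 0.71 for Snap25 on the log2 scale in sections 1 and 2 (adjusted p = 3.1e-04 by edgeR) and by 0.92 for Syp (SE 0.14, adjusted p = 1.6e-04). Syn1, at 266 and 287 in that class against 97.4 and 119 in granule spots, was higher by 1.07 (SE 0.13, adjusted p = 3.3e-05).

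Purkinje spots had the lowest Snap25 and Syt1 of the classes in both sections. Syt1 stood at 72.6, 35.1, 51 and 106 normalized CPM in granule, Purkinje, white matter and brainstem projection spots of section 1, and at 84.5, 34.6, 66.5 and 87.2 in section 2. It was lower in Purkinje spots by edgeR (log2 fold change -1.13, SE 0.18, adjusted p = 3.7e-04), as were Snap25 (-0.97, adjusted p = 0.0014) and Syn1 (-0.69, adjusted p = 0.0048). These 3 were the members called in that class, all lower, where 6.53% of genes were called lower, 4.34% higher and 10.9% in either direction. Vamp2 was highest in Purkinje spots in both sections, at 475 and 548 against 355 and 407 in granule spots, 313 and 385 in white matter and 462 and 483 in the brainstem class. The difference did not pass the test (log2 fold change 0.36, SE 0.13, adjusted p = 0.099 by edgeR).

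Granule spots had the highest level of the transporter Slc17a7 in both sections, and of the complexin Cplx2 in section 2. Slc17a7 was at 395, 140.2, 70.9 and 83.7 normalized CPM in granule, Purkinje, white matter and brainstem projection spots of section 1, and at 778, 263, 237 and 487 in section 2. It was 3.2-fold higher in granule spots (log2 fold change 1.68, SE 0.31, adjusted p = 0.01 by edgeR). The second highest class differed by section, Purkinje in section 1 and brainstem projection in section 2. Cplx2 stood at 109.8, 73.1, 75.7 and 132 in section 1 and at 278, 116, 95.3 and 152 in section 2, so that granule spots led in section 2 only, and the combined value in granule spots was 0.79 (SE 0.19, adjusted p = 0.0063). Syt1 was higher there by 0.43 (adjusted p = 0.04), and Syp (-0.87, adjusted p = 7.1e-04) and Syn1 (-0.75, adjusted p = 0.0017) were lower. So 3 members were called higher and 2 lower in granule spots, where 21.6% and 16% of all genes were called and 37.6% in either direction. Without the section as a block, the 3 higher calls were lost.

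The other glutamate transporter had a different distribution, although brainstem projection spots of section 2 were the second highest class for both. Slc17a6 was at 40.1, 39.4, 182 and 286 normalized CPM in granule, Purkinje, white matter and brainstem projection spots of section 1, and at 9.19, 11.5, 226 and 199 in section 2. The granule and Purkinje classes lay below the other classes in both sections. In the brainstem class it was 5.08-fold higher than in the mean of the other classes (log2 fold change 2.35, SE 0.50, adjusted p = 0.041 by edgeR). This call was lost with RLE factors (adjusted p = 0.054), under scaling by library size alone (0.06) and with spots of a clear class (0.067). The lower values in granule (-2.30, adjusted p = 0.062) and Purkinje spots (-2.21, adjusted p = 0.15) and the higher value in white matter spots (2.17, adjusted p = 0.12) did not pass the test.

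Slc32a1 did not keep its order between sections. It stood at 28.6, 58.4, 58.9 and 102 normalized CPM in granule, Purkinje, white matter and brainstem projection spots of section 1, and at 29.5, 95.4, 38.7 and 44.6 in section 2. Granule spots were lowest in both (log2 fold change -1.15, SE 0.38, adjusted p = 0.06 by edgeR), but the highest class was brainstem projection in section 1 and Purkinje in section 2. In Purkinje spots the difference was 0.07 in section 1 and 1.35 in section 2, and in the brainstem class 1.13 and -0.10. The enzymes that make its cargo were called in Purkinje spots, Gad1 higher by 1.81 and Gad2 by 0.71 on the log2 scale.

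White matter spots were marked by myelin genes, and edgeR called none of the 9 members there (7.39% of all genes were called, 4.9% higher and 2.5% lower). By the same test 5 members had an unadjusted p below 0.05, as did 4007 of all 18702 genes. DESeq2 called 1 member higher and 2 lower, and 1299 of all genes in either direction. Syn1 was at 172 and 216 normalized CPM in sections 1 and 2, and the largest values were those of Slc17a6 given above and of Slc17a7 (-1.14, adjusted p = 0.14). As a share of all UMIs, summed neuronal genes in white matter spots were not below those of granule and Purkinje spots. Neuronal genes that are not presynaptic summed to 11144 and 13984 normalized CPM there in sections 1 and 2. They summed to 7116 and 11553 in granule spots, to 8736 and 13082 in Purkinje spots and to 16879 and 18085 in brainstem projection spots. Of these 27 genes, 5 were called higher and 4 lower in white matter spots (median -0.03). As UMIs per spot, Snap25 was at 15.5 and 17.5 in white matter, 15.6 and 36.3 in granule and 7.23 and 14.3 in Purkinje spots.

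**Figure D5:**
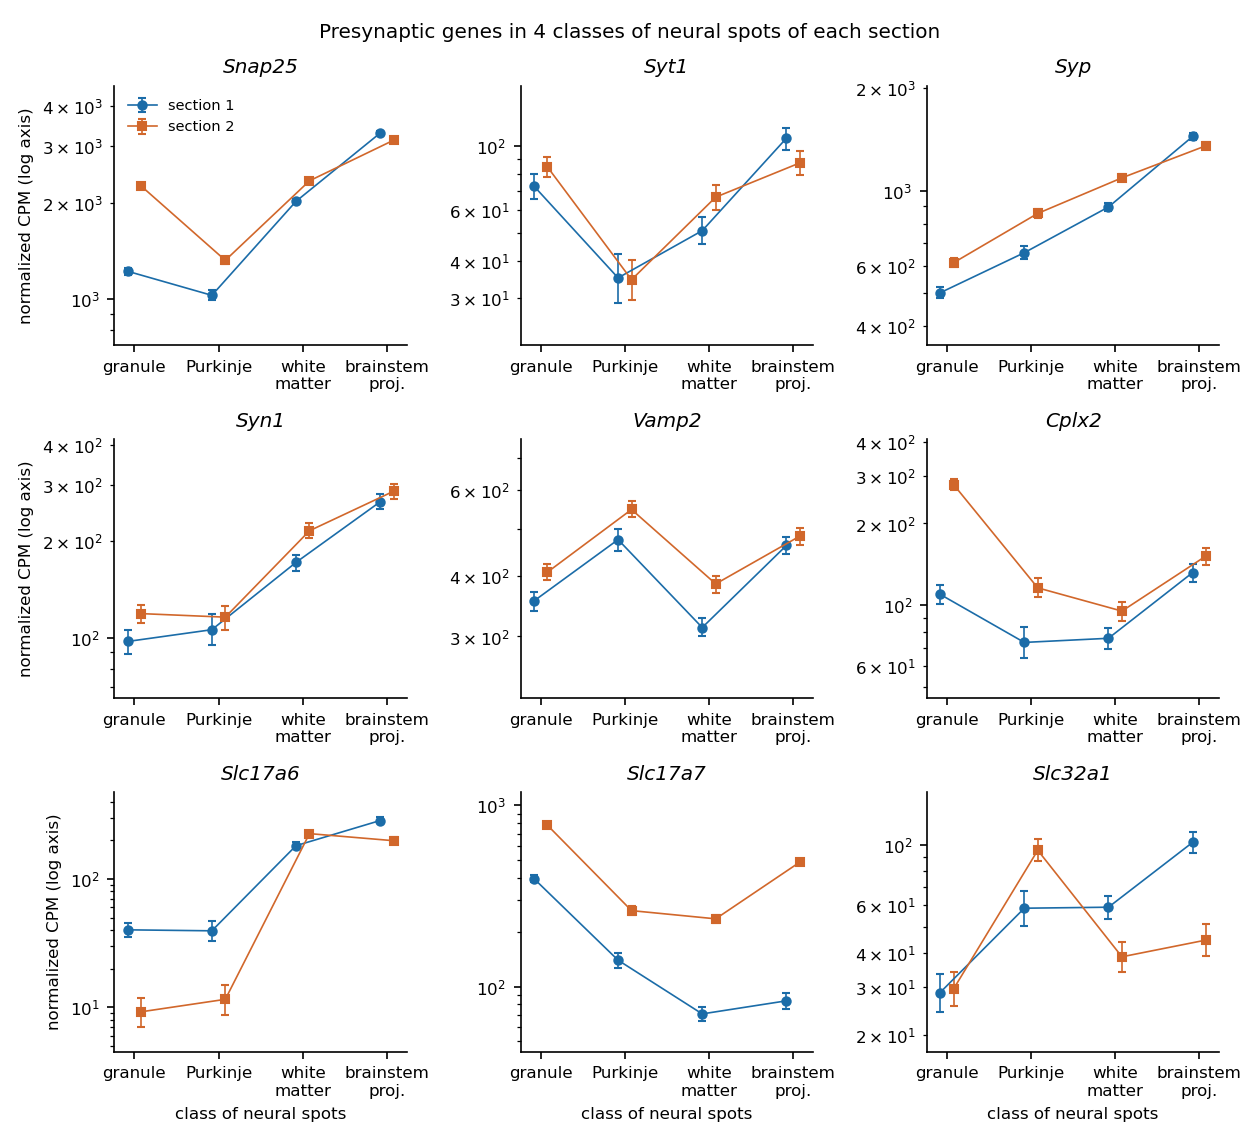
Normalized CPM on a log axis for each of the 9 genes in the 4 classes of neural spots; circles are section 1, squares section 2, and bars are 95% Poisson intervals for counting error. Slc17a7 is highest in granule spots (395 and 778) and Slc17a6 is low in granule and Purkinje spots, while Slc32a1 has a different top class in each section.

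The pathway lists were counted in the same classes. In the brainstem projection class 14 of 18 vesicle proteins, 9 of 12 SNARE and fusion genes and 8 of 11 endocytosis genes were called higher and none lower (17.1% of all genes were called higher), with medians of 0.74, 0.80 and 0.63 against -0.09 over all genes. The rise was not particular to these lists. Neuronal genes that are not presynaptic had 12 of 27 called higher and 4 lower (median 0.28). Glial markers had 10 of 15 higher and 1 lower (median 0.70). Sv2c (1.99) and Sncb (0.93) were among the vesicle proteins called, and Vamp1 (1.95), Cplx1 (1.36) and Nsf (1.26) led the fusion genes. Of 18 active zone genes 2 were called higher and 3 lower there, with a median of 0.01, where 17.1% of all genes were called higher and 10.4% lower. In granule spots, where 21.6% of all genes were called higher and 16% lower, they had 8 called higher and 2 lower, led by Rims2 (1.15) and Cacna1a (1.14) and, in the other direction, Rimbp2 (-1.81), while of the vesicle proteins 11 were called lower and Synpr (0.79) alone higher.

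Paralogs of the members differed in place. Vamp1, the other neuronal vesicle SNARE, was at 143 and 90.7 normalized CPM in granule spots and 911 and 747 in the brainstem class, and was called higher in the latter (1.95) and lower in granule (-1.85) and Purkinje spots (-1.24), while Vamp2 was called in no class. Cplx1 was at 616 and 599 in granule spots against 2574 and 2386 in the brainstem class, and was called lower in granule spots (-1.34), where Cplx2 was called higher. The calcium sensor Doc2b was called higher in Purkinje spots (2.42) and lower in the brainstem class (-1.76), and the choline transporter Slc5a7 was the transmitter gene with the largest rise in the brainstem class (3.93). Slc6a5 was among the 8 genes that defined that class, so its value there (2.23) is no independent finding.

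Across single neural spots, the likeness of patterns was taken as Pearson's r of log2(CPM + 1) over 2338 spots of section 1 and 2237 of section 2, against 7653 genes with a UMI in at least 20% of spots. Spots share a library and vary in depth, and the values are descriptions. Slc17a6 was most like Resp18 (r = 0.47 and 0.47), Slc6a11 (0.46 and 0.48) and Nefm (0.47 and 0.45). Slc17a7 was most like Fat2 (0.43 and 0.50), Zic1 (0.42 and 0.45) and Cbln3 (0.40 and 0.44), all markers of granule cells that also defined the granule class. Snap25 had among its closest genes Ywhag (0.44 and 0.44) and Eno2 (0.44 and 0.53).

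Syp was closest to Ndrg4 (0.41 and 0.42), Cplx1 (0.40 and 0.41) and Mdh1 (0.40 and 0.45). For Cplx2 the closest was the neuronal nuclear marker Rbfox3 (0.24 and 0.34), followed by Prrt2 (0.23 and 0.36) and Camk2b (0.23 and 0.33). Genes among the closest also had low values for Syn1 (Ncdn, 0.30 and 0.29), Vamp2 (Spock2, 0.27 and 0.29), Syt1 (Calb2, 0.25 and 0.25) and Slc32a1 (Gria3, 0.18 and 0.20), of which Syt1 and Slc32a1 had a UMI in 35% and 35.6% of neural spots of section 1 and 40% and 32.7% in section 2. Between members the highest r was that of Snap25 with Syp (0.40 and 0.45). Cplx2 and Slc17a7 had 0.15 and 0.37, and the glutamate transporters were the pair with the lowest r in both sections (-0.08 and -0.14).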

How the data were processed

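UMIs were measured in 2 sections, and the authors deposited them as raw counts for each gene in each spot. Per the labels and submitters' processing notes, the authors counted with Space Ranger 2.1.1 against mm10; nothing was normalized before deposit. Array positions and the mark for tissue came from the same output. The members and lists were chosen with earlier results of these data known.

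Spots in tissue with at least 500 UMIs and 10 genes were kept (3315 and 3999 of 3406 and 4017). The score limit was Otsu's threshold per section, and connected areas under 50 spots were set aside. UMIs were summed into 6 region and 8 class libraries (2540088 to 43389346 UMIs), whose number, 2 sections, sets the precision, and the 95% Poisson intervals cover counting error only. Fits used edgeR 4.0.16 in R 4.3.3 (filterByExpr, TMM, robust glmQLFit, glmQLFTest, Benjamini-Hochberg over all genes tested) and were tested on simulated data. All regions of a section come from the same animal, which makes the section the pair; the common dispersion was 0.102 with this block and 0.161 without it for regions, and 0.0266 and 0.0566 for classes. Each SE was calculated back as the absolute log2 fold change divided by the square root of the quasi-likelihood F statistic, and was not estimated by the fit. Fold changes within a section used log2 of normalized CPM with a pseudocount of 0.5. Genes named beyond the members were, per list, at most the 3 called with the largest change in the same direction in both sections and those against their list's direction; Vamp5, Stxbp2, Stx2 and Vamp3 in the tumor and Gad1 and Gad2 in Purkinje spots were chosen after their values were seen. The listed Etv1, Snap23, Vamp7 and Sypl1 were not analysed here, and some named genes are not reported here. Alternatives were DESeq2 1.42.0, RLE factors, library size only, no filter, no block, other edges, scores, minimum UMIs, neural sets and class limits, and leaving out each section. The study's own clusters were not used here. Scores and sums used Python 3.11.15, numpy 2.4.6, scipy 1.17.1 and pandas 2.3.3, and plots matplotlib 3.10.9.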

Additional observations from a re-analysis of the deposited data

How the results depend on the processing

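Of 756 values of single members recomputed under the alternatives, 603 by a test, 11 calls were lost, 59 were gained and 10 values reversed. All 9 members stayed lower in the tumor than in neural tissue under every alternative fit. As UMIs per spot, Vamp2 and Cplx2 were higher in the tumor of section 1. The ratio of tumor to neural spots for Vamp2 was 1.39 in section 1 and 0.631 in section 2, so its direction was not settled on this scale. The section mean of Cplx2 was -0.78. Calls at the edge depended most on the setting. For edge against neural, DESeq2 called 1120 genes and 4 members lower and the score limit of 0 gave 1280 and 5. For tumor against edge the counts of genes and members lower were 2303 and 9 with DESeq2, 2046 and 7 with the edge split into its 2 sides, 351 and 2 with granule and Purkinje spots as the neural side, 250 and 1 with library size only, and 765 and 5 with the score limit of 0. The causes were not tested.

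Without the section as a replicate block, granule spots had 2469 genes called and 0 members higher, and the genes called were 967 for Purkinje, 456 for white matter and 2391 for brainstem projection spots; Slc17a6 in the tumor lost its call (-4.57, adjusted p = 0.059 by edgeR) and Cplx2 gained one (-2.52, adjusted p = 0.042). DESeq2 called 4 members lower in granule spots, 1 higher in Purkinje spots, and 1 higher and 2 lower in white matter spots. Over all 18702 genes it called 4717, 1776 and 1299 in these classes, in either direction. Purkinje spots had 1 member higher with clear classes and with library size only. White matter spots had 1 member lower with RLE factors and 2 with clear classes and with library size only. The shares of all genes called in these classes under those settings are not given here. With library size only, the median over all genes moved from -0.08 to -0.39 for the tumor, from 0.15 to 0.40 for granule and from -0.09 to -0.37 for brainstem projection spots, and turned Vamp2 to 0.04 in granule and to -0.07 in brainstem projection spots.

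Slc17a7 in brainstem projection spots was 0.17 with clear classes and 0.11 without the block, in place of -0.17. Leaving out each section gave ranges that cross 0 for Snap25 in granule spots (-0.64 to 0.08), Slc17a7 in Purkinje spots (-0.77 to 0.08), Syt1 (-0.34 to 0.07) and Slc32a1 (-0.37 to 0.09) in white matter spots, and Slc17a7 (-0.91 to 0.42) and Slc32a1 (-0.10 to 1.13) in brainstem projection spots; with 1 section left these are values with no test. Limits are the 2 sections, tumor regions of different make-up, region borders drawn from marker scores, and low counts of Slc17a6 and Slc32a1 in the tumor (53 and 93 UMIs in section 1).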

Other observations

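Levels of the same region also differed between the sections, with no test possible. Edge spots held more of all 9 genes in section 2, by 1.88-fold for Vamp2 to 11.3-fold for Slc17a6. The score threshold, the neural tissue beside the border and the make-up of the tumor region also differed between the sections, as given above. Their part in the edge levels was not tested and cannot be told apart with 2 sections.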
